A study of Mus musculus with 3 samples.

Results

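The acinar cell is the secretory unit of the lacrimal gland (LG), and the cells described here are its most RNA-rich form in single-cell RNA sequencing of the adult mouse LG. They were chosen by their content and not by clustering. A called barcode with more than 200 genes and under 15% mitochondrial RNA was a member if it held at least 20000 unique molecular identifiers (UMIs, one per captured RNA molecule), if at least 75% of these fell on tear-product genes, if Car6 was under 5000 CPM, and if Fcgbp, Sftpd, F5 and Ccl9 together had at most 2 UMIs. CPM stands for UMIs per 1000000 UMIs. The tear-product genes were the Scgb, Obp, Esp, Mup and Lcn families with Mucl2, Gm1553, Pip, Lpo and Sval2, 90 genes in all. Of 19592 barcodes past the quality limits, 1424 were members: 280 of 8298 in the female library, 501 of 5582 in male library 1 and 643 of 5712 in male library 2. They made up 3.37, 8.98 and 11.3% of the kept barcodes and 40.1, 61.0 and 57.2% of their UMIs, in that order of libraries, which is kept throughout.

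All mice were C57BL/6J aged 2 months, and no treatment or transgene is named in the labels. Each library was 1 pool of 6 glands from 3 animals, so a library is 1 replicate and animals cannot be separated within it. The 3 libraries are 1 female and 2 male. Different facilities and days produced the female and the male libraries, so the effects of sex, facility and day cannot be told apart and values are given side by side with no test. Xist had 798, 0 and 0 UMIs in the member cells and Ddx3y 0, 64 and 71, on the side of the stated sex. Called barcodes held 40.8, 34.6 and 43.6% of all UMIs of their libraries.

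The LG makes the watery part of tears. Its acinar cells fill with granules of small secreted proteins and release them when nerves act on muscarinic and adrenergic receptors. To make that cargo, ribosomes on the endoplasmic reticulum (ER) pass new chains through the Sec61 channel, a signal peptidase trims them, oligosaccharyltransferase adds sugars to some, and chaperones and disulfide isomerases fold them before they travel through the Golgi. Secretoglobins are small dimeric secreted proteins, and in the mouse many are made from neighbouring Scgb1b (alpha) and Scgb2b (beta-gamma) genes. Odorant-binding proteins and major urinary proteins are lipocalins that carry small hydrophobic molecules, and exocrine gland-secreted peptides include pheromones of the mouse. Mucl2 encodes a mucin-like protein and Pip the prolactin-induced protein.

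The bases just before the start of 7 tear-product genes are shown, the 6 above 4% of the UMIs in every library, which supply most of the RNA of a member cell, and Obp1b, which was high in the female library and low in both male ones. In the RefSeq promoter table for GRCm38.p6, 12 of the 15 genes that reached 1% of the UMIs in a library were matched; the files use the mm10 build. Each line runs 5′ to 3′ on the strand of the gene and gives the 100 bases before its start. Capitals mark TATAAA or TATATA, the 2 words searched for.
Mucl2 (chr15:103899313-103899412, minus strand): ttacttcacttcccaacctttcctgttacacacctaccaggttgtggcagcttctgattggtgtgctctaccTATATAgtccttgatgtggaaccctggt
Gm1553 (chr10:82492619-82492718, minus strand): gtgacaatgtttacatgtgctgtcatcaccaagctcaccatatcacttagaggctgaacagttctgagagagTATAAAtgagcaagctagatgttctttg
Obp1a (chrX:78091375-78091474, minus strand): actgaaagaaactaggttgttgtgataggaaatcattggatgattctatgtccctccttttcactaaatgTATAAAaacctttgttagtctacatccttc
Obp1b (chrX:78186708-78186807, plus strand): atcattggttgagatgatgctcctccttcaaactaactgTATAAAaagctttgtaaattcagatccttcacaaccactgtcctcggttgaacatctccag
Scgb2b2 (chr7:31302669-31302768, plus strand): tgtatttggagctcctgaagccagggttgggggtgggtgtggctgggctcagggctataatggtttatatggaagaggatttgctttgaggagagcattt
Scgb1b2 (chr7:31291817-31291916, minus strand): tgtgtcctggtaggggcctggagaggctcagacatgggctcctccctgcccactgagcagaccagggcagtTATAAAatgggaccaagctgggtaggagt
Scgb2b24 (chr7:33739296-33739395, minus strand): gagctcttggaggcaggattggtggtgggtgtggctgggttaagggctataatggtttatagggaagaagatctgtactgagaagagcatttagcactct
The capitals began 28 bases before the start in Mucl2, 28 in Gm1553, 30 in Obp1a, 61 in Obp1b and 29 in Scgb1b2, and neither word was found in these bases of Scgb2b2 and Scgb2b24. GENCODE M21 places the start of Obp1b further upstream, at 78186777. Over the 250 bases before to 50 bases after the start, TATAAA was found on either strand in 10 of the 12 promoters (83.3%), in 28 of the 70 matched tear-product genes (40%) and in 14.2% of all 27025 promoters in the table. TATATA, which reads the same on both strands and can overlap TATAAA, was in 3 of 12 (25%), 17 of 70 (24.3%) and 5.94%. One of the words began 20 to 40 bases before the start on the gene's own strand in 6 of 12 (50%), 24 of 70 (34.3%) and 3.04%. These matches describe letters in a window and not sites in use.

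Scgb2b20 and Scgb2b7 are shown as a pair because their RNAs varied widely from cell to cell in the female library. Capitals mark their longest shared run, 57 bases.
Scgb2b20 (chr7:33366320-33366419, minus strand): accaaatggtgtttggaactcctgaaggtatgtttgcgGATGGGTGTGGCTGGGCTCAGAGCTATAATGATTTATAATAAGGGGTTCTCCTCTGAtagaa
Scgb2b7 (chr7:31705755-31705854, minus strand): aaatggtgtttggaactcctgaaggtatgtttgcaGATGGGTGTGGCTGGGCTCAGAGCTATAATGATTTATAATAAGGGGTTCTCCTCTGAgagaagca
In GENCODE M21 on GRCm38, Scgb2b20 (chr7:33364343-33366322) and Scgb1b20 (chr7:33373234-33374559) lie 6.91 kb apart on opposite strands, with their starts facing each other. Scgb2b7 (chr7:31703779-31705757) and Scgb1b7 (chr7:31712665-31713978) do the same, 6.91 kb apart. Scgb1b2 (chr7:31290519-31291821) and Scgb2b2 (chr7:31290508-31304977) overlap on opposite strands in GENCODE; the RefSeq start of Scgb2b2, used for its promoter above, lies inside the GENCODE gene and beyond Scgb1b2, so the overlap depends on the annotation. All 6 are annotated as protein-coding. Near-identical paralogs in these families could share or split reads, so the split between family members is less certain than their sum.

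What chose the cells is given here as a description. Median totals were 60488.5, 45472 and 37351 UMIs, with medians of 1846, 1503 and 1300 genes per cell and 0.484, 0.542 and 0.474% mitochondrial UMIs. The deepest female cell held 293947 UMIs. The median tear-product share was 79.0, 85.4 and 86.3%. The limits fell differently on the libraries. Of the kept barcodes with at least 20000 UMIs, 288 of 439 in the female library had a tear-product share of 75% or more (65.6%), against 520 of 523 (99.4%) and 675 of 677 (99.7%) in the male libraries. A further 122 deep female barcodes had a share of 50 to 75%, and 191 of the 280 female members lay between 75 and 80%, against 13 and 18 male members. The lowest totals inside the limit were 20129, 20023 and 20005 UMIs and the highest outside 19868, 19922 and 19913. The lowest tear-product shares inside were 75.06, 76.26 and 75.17% and the highest outside 74.96, 74.18 and 73.68%.

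**Figure D1:**
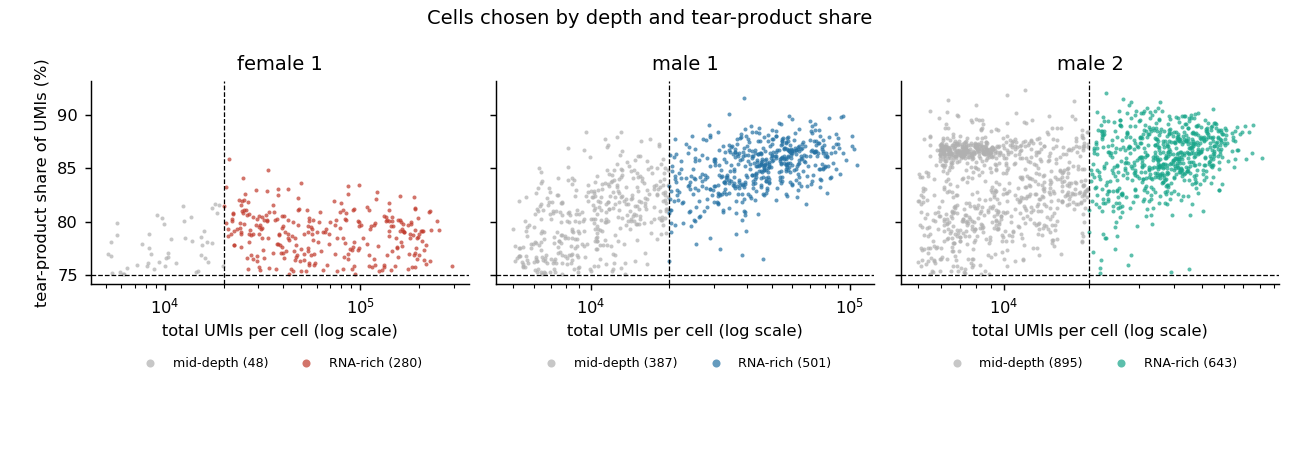
Total UMIs per cell (log scale) against the tear-product share of UMIs (%) for the RNA-rich cells (color) and for mid-depth cells that meet the same rule at 5000 to under 20000 UMIs (grey), 1 point per cell. Dashed lines are the limits at 20000 UMIs and 75%; female members sit just above the 75% limit, with a median of 79.0%, and reach deeper totals than male members.

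Acinar markers outside the rule were then checked. Pigr, the receptor that carries immunoglobulin A across the cell, had 95.4, 52.3 and 53.0 CPM. Agr2, a protein disulfide isomerase of secretory epithelia, had 392.5, 432 and 405 CPM, and Fkbp11, a prolyl isomerase of the ER, 55.1, 86.4 and 91.9 CPM. In barcodes with fibroblast markers, which should lack these RNAs, Pigr had 39.4, 26.5 and 19.0 CPM and Agr2 137, 303 and 269 CPM, all below the member cells of the same library. Fkbp11 had 44.2, 83.9 and 63.8 CPM there, close to the members in male library 1. Without thinning, 88.9, 86.2 and 79.2% of member cells had a Pigr UMI, against 12.0, 3.21 and 2.88% of the fibroblast-marker barcodes, whose median depth was 3253, 1603 and 1382 UMIs. With each cell thinned to 5000 UMIs, which left out no member cell, the female share was 36.8% in members and 21.2% in the 208 fibroblast-marker barcodes deep enough to thin; 1579 were too shallow. Fkbp11 gave 22.9 and 22.6% in the same cells and is read as background at that depth. Only 6 and 4 fibroblast-marker barcodes of the male libraries could be thinned to that depth. At 2000 UMIs, with 1547, 137 and 63 fibroblast-marker barcodes, Pigr was found in 20.4, 10.2 and 10.4% of members and 6.27, 4.38 and 1.59% of those barcodes. Agr2 gave 51.1, 58.1 and 56.9% against 21.4, 44.5 and 55.6%, near background in male library 2, and Fkbp11 7.50, 17.2 and 15.6% against 8.02, 14.6 and 12.7%, near background in every library. Lpo, the lactoperoxidase of tears, was counted in the rule and stood at 280, 417 and 408 CPM.

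Markers of other cell types were low in the member cells. The 7 fibroblast markers summed to 18.0, 8.77 and 12.1 CPM, against 24436, 24155 and 20590 in fibroblast-marker barcodes. Sums were 4.92, 1.37 and 1.41 CPM for 8 duct markers and 4.05, 2.41 and 2.82 for 8 myoepithelial markers. They were 2.40, 9.89 and 13.4 for 8 markers of Ltf+ epithelium, 4 of which the rule held down, and 19.7, 10.9 and 18.6 for 8 of macrophages and dendritic cells. Endothelial markers (6) summed to 3.64, 0.166 and 1.05 and plasma cell markers (6) to 42.0, 31.8 and 32.0. The plasma cell list holds Derl3, which is also in the ER-associated degradation list below, so its sum does not stand for plasma cells alone. Mzb1, a plasma cell chaperone, was at 0 in every library. The hemoglobin genes Hbb-bt, Hba-a1 and Hba-a2 were at 0 as well. Mural, lymphoid and cycling lists summed to between 0.0807 and 9.97 CPM.

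RNA free in the suspension was described from uncalled barcodes of 10 to 100 UMIs. Tear-product genes made up 67.7, 79.0 and 79.1% of it. From the tear-product RNA in fibroblast-marker barcodes, a barcode was estimated to hold 893, 802 and 624 free UMIs, or 1.48, 1.76 and 1.67% of the median member total. The 4 acinar markers summed to 677, 958 and 955 CPM in free RNA and 823, 988 and 958 in members. Barcode sequences found in 2 libraries numbered 12 to 18 a pair, and none was a member in both. The highest doublet scores fell on 16, 25 and 17 members (5.71, 4.99 and 2.64%), which stayed in and were left out as an alternative.

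Some member cells held almost no Malat1 RNA. Malat1, a long noncoding RNA that stays in the nucleus, had fewer than 3 UMIs in 116 female cells (41.4%), 35 cells of male library 1 (6.99%) and 143 of male library 2 (22.2%). In the female library these Malat1-poor cells had a median of 926 genes, 33459 UMIs and 0.0885% mitochondrial UMIs, against 2754 genes, 113782 UMIs and 0.753% in the other members. Median genes were 1572 and 1503 in male library 1 and 1183 and 1328.5 in male library 2. Of the mid-depth cells, 75, 5.68 and 49.8% were Malat1-poor, so the share was high in the female library and male library 2 and low in male library 1. The comparisons below are therefore also given with such cells left out, an alternative chosen after seeing the data.

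**Figure D2:**
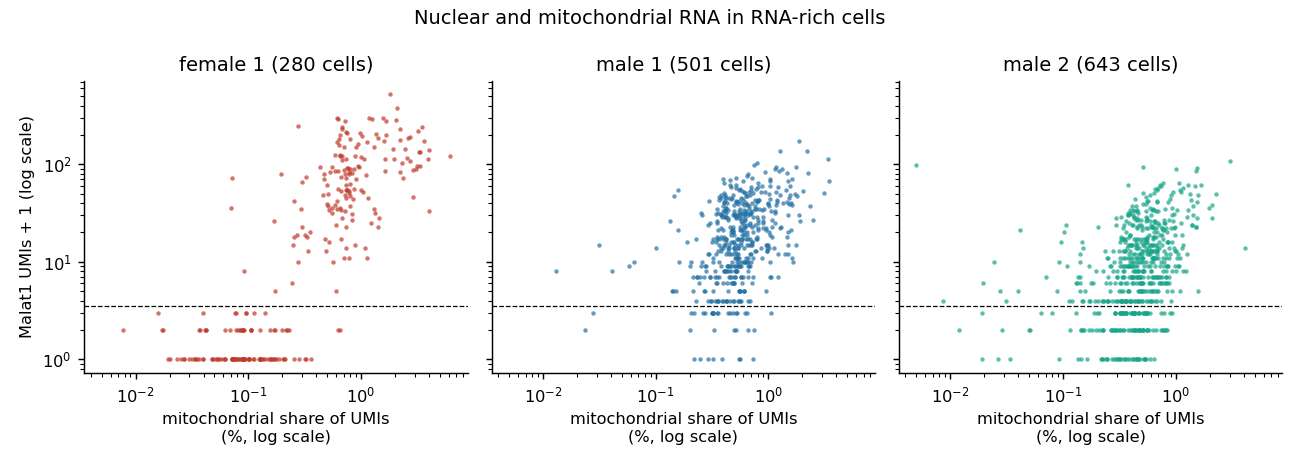
Malat1 UMIs plus 1 against the mitochondrial share of UMIs (%), both on log scales, for each RNA-rich cell by library; a share of 0 is drawn at 0.005%, and the dashed line separates cells with fewer than 3 Malat1 UMIs. Below the line lie 116 of 280 female cells, but only 35 of 501 in male library 1.

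Next, the tear-product genes were followed one by one. They are part of the rule, so their values are a description with no test, and since each molecule is counted once at its 3′ end, shares need no correction for length. A few genes held most of the RNA. The 10 leading tear-product genes carried 74.8, 76.1 and 78.3% of all UMIs of the member cells. Mucl2 was first in the female library with 21.4% of the UMIs, against 11.7 and 11.5% in the male libraries (14.9 ± 5.67%, SD, n = 3 libraries). Gm1553, a predicted gene, was first in both male libraries with 15.5 and 14.7%, against 7.90% in the female library. Obp1a had 14.7, 11.4 and 11.0%, Scgb2b2 7.76, 9.07 and 11.0%, Scgb1b2 7.37, 7.75 and 9.19% and Scgb2b24 4.78, 7.58 and 7.03%. These 6 genes were above 4% in every library. Pip had 1.91, 2.16 and 1.83% and Esp6, an exocrine gland-secreted peptide, 1.09, 1.29 and 1.11%, so both were close to level across the libraries. Lpo was far lower, at 0.0280, 0.0417 and 0.0408%.

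By family, the 34 secretoglobin genes took 22.7, 39.4 and 42.5% of the UMIs. The 4 odorant-binding protein genes took 21.7, 11.4 and 11.0% and the 15 exocrine gland-secreted peptide genes 2.26, 3.07 and 2.67%. The 22 major urinary protein genes took 0.0188, 1.46 and 1.32% and the 10 Lcn genes 0.240, 0.354 and 0.284%. The female library was lowest for secretoglobins and highest for odorant-binding proteins.

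The same genes were read in the other acinar cells. In mid-depth cells Mucl2 had 22.1, 10.3 and 11.2% and Gm1553 6.76, 12.4 and 14.4%. Car6-high cells carry the secreted carbonic anhydrase Car6 at 5000 CPM or more, and there Mucl2 had 7.31, 7.97 and 8.68% and Gm1553 1.88, 3.58 and 4.21%. Obp1a ran the other way, at 33.1, 27.0 and 26.2% in Car6-high cells, and so did Mup4, at 2.63, 8.61 and 9.16%. Lpo had 0.0435, 0.0992 and 0.0602% in mid-depth cells and 0.0494, 0.0878 and 0.0799% in Car6-high cells. Both were above the member cells of the same library. These values follow in part from the rules, which asked for 75% of UMIs in tear products in member and mid-depth cells and for 50% in Car6-high cells.

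Between the libraries, 15 tear-product genes reached 1% in at least 1 of them. Among these the 2 male libraries differed by at most 1.31 on the log2 scale, for Obp1b. Obp1b had 70067, 77.2 and 31.2 CPM, high in the female members and low in both male libraries. Mup4 had 187, 14546 and 13169 CPM and Scgb1b3 8.19, 14360 and 8695 CPM, both low in the female members. The 4 genes of the 20 and 7 secretoglobin pairs were also lower there: Scgb1b20 had 0.884, 3.94 and 4.26% of the UMIs, Scgb2b20 0.639, 3.34 and 3.41%, Scgb1b7 0.669, 2.81 and 3.21% and Scgb2b7 0.450, 2.94 and 2.98%. Of the 15 genes, 1 was over 2-fold higher in the female library than in both male libraries and 6 were over 2-fold lower. Genes outside the rule are not in this count, among them Gm14743, which was abundant in the female library and is described below.

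**Figure D3:**
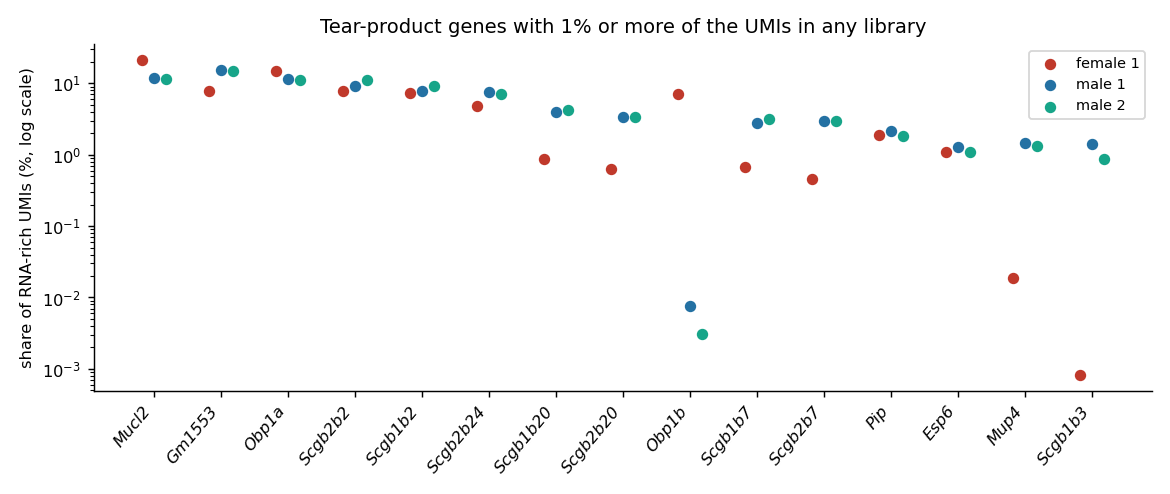
Share of the UMIs of RNA-rich cells (%, log scale) on each of the 15 tear-product genes that reach 1% in any library, 1 point per library. The female point stands apart from the male points most for Obp1b (7.01% against 0.00772 and 0.00312%), Mup4 and Scgb1b3.

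Over all genes with at least 100 CPM in a library, 172 of 186 had both male libraries on the same side of the female one. Of these, 32 differed over 2-fold from both males, while the 2 male libraries differed over 2-fold from each other in 4. Both comparisons share the female library, so same-side genes are common even with no difference, and how many to expect was not worked out. Tear-product genes took 78.7, 85.5 and 86.2% of the UMIs, which by itself raises the CPM of other genes in the female library. The largest ratios were of genes seen almost only on 1 side. Scgb2b12 had 3 female UMIs and 2583 and 2811 CPM in the males, a ratio with a 95% counting interval of 7438 to 105407. Scgb2b3 had 0, 791 and 497 CPM, at least 5191-fold lower in the female library against a floor of 3 UMIs per library, and Scgb2b17 had 0, 185 and 116 CPM, at least 1211-fold lower. Esp24 had 0.786, 253 and 461 CPM and Gm43974 0.207, 318 and 359 CPM. On the female side, Pnliprp1, a pancreatic lipase-related protein, had 432, 0 and 0 CPM, at least 3512-fold higher, Bpifa2, the parotid secretory protein, 169, 0 and 0 CPM, at least 1373-fold higher, and Gm49835 114, 0.166 and 0.403 CPM. Bpifa2 was lower in female members than in female free RNA (4912 CPM) and in female fibroblast-marker barcodes (3795 CPM). Intervals and floors cover counting error only.

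Cell by cell, Mucl2 was the most abundant RNA in 272 of 280 female cells (97.1%). In the male libraries Gm1553 led in 362 of 501 (72.3%) and 397 of 643 cells (61.7%), Mucl2 in 85 and 100, Obp1a in 43 and 53, and Scgb2b2 in 11 and 91. From the 10th to the 90th percentile of cells, Mucl2 ran from 18.8 to 25.1%, 6.68 to 16.9% and 6.98 to 16.0% of a cell's UMIs. For Gm1553 the same ranges were 5.79 to 9.57%, 12.8 to 18.3% and 11.9 to 17.3%.

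The 4 genes Scgb1b20, Scgb2b20, Scgb1b7 and Scgb2b7 varied more in the female library. Their summed share ran from 0.0161 to 7.90% of a female cell's UMIs, with a median of 2.26% and 10th and 90th percentiles of 0.210 and 6.05%. Of the 280 cells, 79 (28.2%) had under 1%. In the male libraries the sum ran from 8.02 to 19.3% and from 7.73 to 23.0%, with medians of 12.8 and 13.4%, and no cell was under 1%. The ratio of the 90th to the 10th percentile in female cells was 28.7 for Scgb1b20, 38.5 for Scgb2b20, 32.6 for Scgb1b7 and 81.7 for Scgb2b7, while Mucl2 had 1.33 and Obp1a 1.35. Counting alone gives a coefficient of variation of 4.71% for Scgb1b20 in the female library, where 74.4% was measured.

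Within a pair the genes went together. Across the 280, 501 and 643 cells of a library, the Spearman correlation of Scgb2b20 with Scgb1b20 was 0.979, 0.629 and 0.784, and that of Scgb2b7 with Scgb1b7 was 0.984, 0.544 and 0.731. The summed 20 pair against the summed 7 pair gave 0.779, 0.902 and 0.935. The pair Scgb2b2 and Scgb1b2 gave 0.802, 0.837 and 0.80. The 4-gene sum ran against Obp1a (-0.596, -0.558 and -0.640) and with Scgb2b24 (0.559, 0.627 and 0.665). Cells of a library share their library and these are shares of 1 total, so a gene that takes more leaves less for the others; the part of this and of reads shared between paralogs was not tested. Female cells with a sum under 1% and those above it had median totals of 56320 and 62790 UMIs, and 41.8 and 41.3% of them were Malat1-poor. Female mid-depth cells had a median sum of 2.41%, with 9 of 48 under 1%. The deep female barcodes at a tear-product share of 50 to 75% that met the other limits had 1.38%, with 38 of 95 under 1%.

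**Figure D4:**
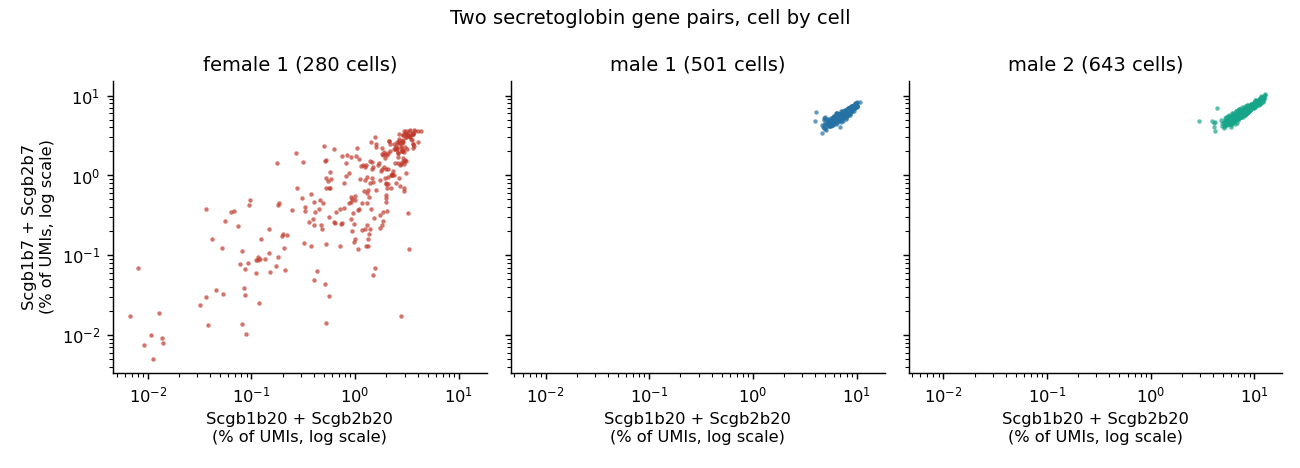
Summed share of UMIs (%) on Scgb1b20 and Scgb2b20 against that on Scgb1b7 and Scgb2b7, log scales, 1 point per RNA-rich cell, by library. Male cells lie in a compact cloud at the top right, while female cells stretch toward low values; their 4-gene sum has 10th and 90th percentiles of 0.210 and 6.05%.

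RNA-rich cells were compared with Car6-high acinar cells (36, 17 and 18 cells) to describe how they differ from another kind of acinar cell. UMIs were summed per library and kind of cell and tested with edgeR's quasi-likelihood test with the library as a block, n = 3 libraries; genes of the rule were left out of every count. Levels in the comparisons are CPM after TMM scaling, which sets the bulk of the genes equal between sums. The Car6-high sums held 787669, 144640 and 130210 UMIs, and 1 UMI of male library 1 came to 3.62 CPM on this scale. Low Car6-high levels of the male libraries, such as those of Pigr, Fgg and Ero1l below, therefore rest on few UMIs. Of 6842 genes, 254 were higher (3.71%) and 117 lower (1.71%) in RNA-rich cells at a Benjamini-Hochberg adjusted p under 0.05. With total UMIs in place of TMM the median over all genes moved from 0.21 to -1.0 on the log2 scale and the counts were 15 and 1032; the rule itself gives tear products a larger part of the total in RNA-rich cells. Changes below are therefore relative to the bulk of the other genes. The counts were 338 and 66 without the female library, 102 and 64 without male library 1 and 144 and 71 without male library 2.

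Ribosomal protein genes were higher in 76 of 79, with a median log2 fold change of 1.13 against 0.21 over all genes (on total UMIs -0.26 against -1.0). By library the ribosomal medians were 0.94, 1.22 and 1.26 and the all-gene medians 0.06, 0.74 and 0.82. The count of higher ribosomal protein genes was 44 without male library 1, 42 with DESeq2 and 42 without the block, and on total UMIs 0 were higher and 3 lower. Rps15a, of the small ribosomal subunit, had 456, 435 and 478 CPM in RNA-rich cells and 215, 123 and 143 in Car6-high cells. Its levels did not overlap, as in the 21.6% of all genes tested whose 3 RNA-rich levels were all above the 3 Car6-high levels, with a fold change of 1.51 ± 0.22 (log2 ± SE; edgeR adjusted p = 1.7e-09). Of 24 translation factors, 9 were higher, among them the elongation factors Eef1b2 (1.22 ± 0.24, adjusted p = 2.5e-05) and Eef1a1 (1.21 ± 0.23, adjusted p = 5.1e-06). Their count was 3 without male library 1, 6 without male library 2, 4 with DESeq2 and 3 without the block, and on total UMIs 0 were higher and 5 lower.

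Part of the ER entry and folding machinery was higher too on the TMM scale, while on total UMIs the translocon list had a median of -0.42, the chaperones -0.60 and the translation factors -0.47. Of 23 translocon and signal recognition genes, 11 were higher and 0 lower (median 0.87). Spcs2, a signal peptidase subunit, had 449, 476 and 453 CPM in RNA-rich and 244, 177 and 158 in Car6-high cells (1.25 ± 0.22, adjusted p = 7.7e-07). Srp19, of the signal recognition particle, rose by 1.41 ± 0.37 (adjusted p = 0.0039). Of 12 oligosaccharyltransferase genes 4 were higher, led by Ost4 (1.57 ± 0.36, adjusted p = 0.00046). Of 24 chaperone and disulfide isomerase genes 9 were higher and 1 lower. DESeq2 called 3, 0 and 2 of the 3 lists higher, and without the block edgeR called 5, 2 and 3. On total UMIs 0 genes of each list were higher and 5, 2 and 7 lower. Without male library 1 the 3 lists gave 5, 1 and 2 higher and without male library 2 6, 2 and 3.

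Agr2 had 652, 698 and 671 CPM in RNA-rich cells and 186, 159 and 195 in Car6-high cells (1.90 ± 0.23, adjusted p = 1.1e-14). Fkbp11 had 91.6, 139 and 152 against 25.1, 25.3 and 33.8 (2.11 ± 0.29, adjusted p = 7.7e-11). Pigr had 158, 84.5 and 87.8 against 45.6, 14.5 and 15.0 (2.10 ± 0.31, edgeR adjusted p = 1.0e-09), its male Car6-high values resting on few UMIs. On the TMM scale none of these 3 acinar markers overlapped between the 2 kinds of cell. The same held for 21.6% of all genes tested, whose 3 RNA-rich levels were all above the 3 Car6-high levels. On total UMIs the 4 acinar markers, Lpo included, summed to 823, 988 and 958 CPM in RNA-rich cells. In Car6-high cells they summed to 780, 1258 and 1298 CPM, higher than in RNA-rich cells in both male libraries. The chaperone list member that fell was Ero1l, the oxidase that recharges protein disulfide isomerase, with 6.53, 5.91 and 5.41 against 25.1, 14.5 and 26.3 (-1.89 ± 0.43, adjusted p = 0.00045). Hspa5, the main ER chaperone, had 238, 223 and 210 against 186, 127 and 154 and did not pass (0.52 ± 0.23, adjusted p = 0.20).

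Other lists had fewer calls. In ER-associated degradation 2 of 13 were higher, including the ubiquitin-conjugating enzyme Ube2j1 (1.72 ± 0.43, adjusted p = 0.0016), in ER-to-Golgi transport 2 of 33, including the SNARE protein Bet1 (1.42 ± 0.34, adjusted p = 0.0011), and in nuclear-encoded oxidative phosphorylation 16 of 84. The degradation and ER-to-Golgi counts were 0 and 0 with DESeq2, 0 and 0 without male library 1 and 1 and 1 without male library 2, and on total UMIs 0, 0 and 0 genes of the 3 lists were higher and 5, 12 and 21 lower. The oxidative phosphorylation count was 0 with DESeq2, 1 without the library block, 5 under 5% mitochondrial UMIs, 4 with Malat1-poor cells left out, and 2 and 3 without male library 1 or 2. Among 9 unfolded protein response genes and secretory transcription factors, 12 granule and exocytosis genes and 11 secretagogue receptor and calcium release genes, edgeR called 0, 0 and 0, with 0, 0 and 0 at an unadjusted p under 0.05 and 0, 0 and 0 called by DESeq2; on total UMIs 4, 4 and 2 of them were lower. Of 17 genes for the supply of free amino acids 1 was higher, Slc3a2, the heavy chain of several amino acid transporters (1.16 ± 0.34, adjusted p = 0.017). Of 11 heat shock genes 1 was higher, the mitochondrial chaperonin Hspd1 (1.62 ± 0.49, adjusted p = 0.019). Both counts were 0 with DESeq2 and without male library 1 or male library 2, and on total UMIs 3 and 6 were lower.

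Secreted products outside the rule went both ways, 5 of 12 higher and 5 lower. The counts were 3 and 7 on total UMIs, 2 and 3 without the block and 3 and 5 with DESeq2. Fgg, the fibrinogen gamma chain, had 146, 150 and 143 CPM in RNA-rich and 17.1, 10.9 and 11.3 in Car6-high cells (3.37 ± 0.33, adjusted p = 7.3e-22). Haptoglobin, Hp, had 849, 426 and 357 against 149, 138 and 71.3 (2.17 ± 0.23, adjusted p = 3.2e-18). Wfdc12, a WAP-domain protein, had 206, 8249 and 6256 against 30.8, 663 and 552 (3.34 ± 0.29, adjusted p = 8.3e-28), so it was higher in RNA-rich cells within every library although the female library was low in both. Wfdc18 of the same domain family ran the other way, with 74.7, 145 and 161 against 5395, 4925 and 2514 (-5.08 ± 0.30, adjusted p = 4.6e-60). Pglyrp1, which binds bacterial peptidoglycan, fell by 5.43 ± 0.53 on the log2 scale (adjusted p = 1.4e-22). Ggh, the gamma-glutamyl hydrolase, fell by 2.37 ± 0.33 on the log2 scale (adjusted p = 7.3e-11), and the nuclease Dnase1 by 1.69 ± 0.26 on the log2 scale (adjusted p = 1.5e-08).

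The changes named next were the largest among called genes with 1 direction in every library and a mean of at least 20 CPM. High levels in 1 kind of cell alone could meet that limit. The first rise was the long noncoding RNA Gm14135 (chr2:149257277-149262145), with 19239, 11227 and 12396 CPM in RNA-rich and 1747, 713 and 612 in Car6-high cells (3.92 ± 0.32, adjusted p = 1.6e-32). Gm14743, a protein-coding gene 48.2 kb from Obp1b on chromosome X, had 73058, 680 and 619 against 30750, 32.6 and 22.5 (3.09 ± 0.37, adjusted p = 1.1e-14; without male library 1 it gave 2.67 and did not pass), so it was abundant in the female library and higher in RNA-rich cells of each library. The other rises among the 10 largest, outside the secreted products, were Gm8978, Gm43974, Ly6f, Lcmt1, Lipo1 and BC049987, at 2.49 to 3.62. The first fall was Barx2, a homeobox transcription factor, with 0.343, 0.336 and 0.134 against 36.5, 3.62 and 45.0 (-6.60 ± 0.56, adjusted p = 4.1e-29). It reached 20 CPM only through its Car6-high levels, which rest on 32, 1 and 12 UMIs. The size of its fall and its first place are therefore uncertain. Mgat4a, a Golgi glycosyltransferase, had 0.481, 0.336 and 0.468 against 63.8, 21.7 and 41.3 (-6.58 ± 0.50, edgeR adjusted p = 2.8e-36). Like Barx2, it reached 20 CPM only through its Car6-high levels, which rest on few UMIs in the male libraries. The size and place of its fall are therefore uncertain too. Gm44410, Ncald, Selenom, Hes1 and Folr1 changed by -5.03 to -2.95.

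In ion and water transport 3 of 12 fell and 1 rose. Kcnn4, a calcium-activated potassium channel, had 2.06, 8.12 and 8.36 against 113, 83.3 and 75.1 CPM (-4.13 ± 0.33, adjusted p = 1.8e-33), and Slc12a2, the sodium-potassium-chloride cotransporter, fell by 3.00 ± 0.79 on the log2 scale (adjusted p = 0.0041). Aqp8, a water channel, rose by 2.72 ± 0.58 (adjusted p = 0.00012). In the acinar identity list 5 of 15 rose, among them the membrane protein Prom2 (1.64 ± 0.36, adjusted p = 0.00024), and 2 fell, the adhesion molecule Epcam and Barx2, whose Car6-high values rest on few UMIs. On total UMIs 0 and 0 of the transport and acinar identity lists were higher and 10 and 9 lower, and 1 and 1 transport genes fell without male library 1 or male library 2. The acinar identity counts were 3 and 1 without male library 2. Of 9 genes that the study picked on these libraries for iron handling, the cytoskeleton and the cells that carry them, and which are no independent evidence, 2 rose, Slc27a2, a fatty acid transporter, and the ferritin heavy chain Fth1, and 1 fell, the transcription factor Etv1. On total UMIs 0 of these 9 were higher and 5 lower. Without the block the counts were 0 and 1, and with DESeq2 or without male library 1 or male library 2 they were 1 and 1.

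Mitochondrial, nuclear and early-response RNAs were among those that fell. Of the 13 genes of the mitochondrial genome 6 fell (median -0.70; on total UMIs -2.07), with mt-Nd3 at 219, 153 and 121 against 432, 330 and 259 CPM (-1.06 ± 0.21, adjusted p = 3.6e-05). The count of falls was 0 under 5% mitochondrial UMIs (median -0.32), 0 with no filter, 0 without the block, 0 without male library 1, 1 without male library 2, 2 with Malat1-poor cells left out and 5 with DESeq2. Of 22 nuclear-retained and splicing RNAs 2 fell: Malat1, with 1108, 790 and 537 against 4151, 3422 and 1933 (-1.96 ± 0.26, adjusted p = 2.7e-12), and Gm42418, an annotated RNA that overlaps ribosomal RNA. Of 16 immediate early genes 3 fell, Ier3 (-2.53 ± 0.38, adjusted p = 3.1e-09), Jun and Btg2. The nuclear-retained and immediate early counts were 1 and 0 without the block, 1 and 1 without male library 1 and 1 and 2 without male library 2. On total UMIs 19 of 22 nuclear-retained and 11 of 16 immediate early genes were lower. With Malat1-poor cells left out, 192 genes were higher and 115 lower, of which 191 and 108 were shared with the fit on all cells. Markers of Ltf+ epithelium moved with this result: 1 of 2 tested was lower, and they summed to 1.37, 9.46 and 15.6 CPM in RNA-rich against 26.2, 43.5 and 52.5 in Car6-high cells. Their part in the result was not tested. Both kinds of cell had the same limit of 2 UMIs on Fcgbp, Sftpd, F5 and Ccl9, which is stricter per UMI in the deeper RNA-rich cells. How far it lowered Pglyrp1 and the other markers of this epithelium was not tested.

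**Figure D5:**
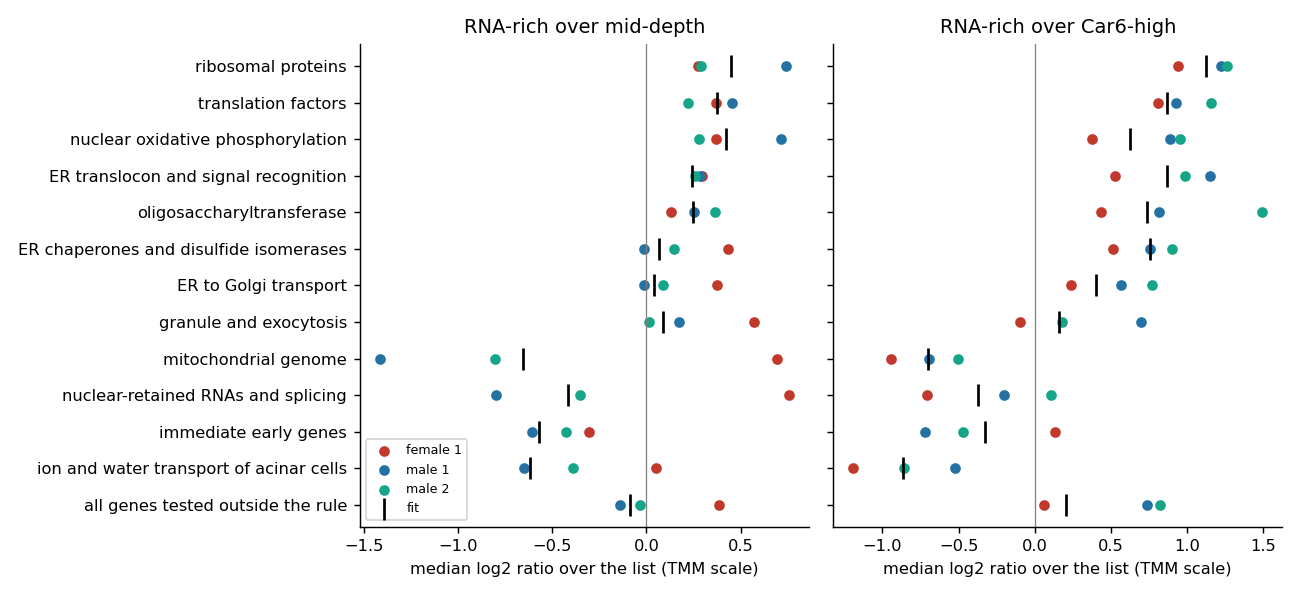
Median log2 ratio of each gene list between RNA-rich and mid-depth cells and between RNA-rich and Car6-high cells, on the TMM scale, 1 point per library, with the median of the fitted values as a tick. Against Car6-high cells the ribosomal, translation and translocon points lie to the right of the all-gene point in each library; against mid-depth cells this holds in the male libraries only, the all-gene medians being 0.39, -0.14 and -0.03 there.

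RNA-rich cells were next compared with mid-depth acinar cells that met every other limit and held at least 5000 but under 20000 UMIs (48, 387 and 895 cells), to describe what changed with RNA content. Of 7981 genes 132 were higher (1.65%) and 201 lower (2.52%) in RNA-rich cells; of these, 130 and 117 went the same way in 3 of 3 libraries. With total UMIs in place of TMM the counts were 1 and 1640, and the median over all genes moved from -0.09 to -0.58. The counts were 191 and 319 without the female library, 33 and 76 without male library 1 and 0 and 11 without male library 2 (288 and 282 at an unadjusted p under 0.05). DESeq2 called 16 and 3, and without the library block edgeR called 0 and 0 (315 and 545 unadjusted). The female mid-depth sum rests on 48 cells, of which 36 were Malat1-poor. With Malat1-poor cells left out 686 genes were higher and 386 lower, and 132 of the 132 rises and 152 of the 201 falls were among them; that alternative rests on 12 female mid-depth cells.

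On the TMM scale, 19 of 79 ribosomal protein genes were higher and 0 lower, with a median of 0.45 against -0.09 for all genes (on total UMIs -0.05 against -0.58). By library the ribosomal medians were 0.28, 0.74 and 0.29 and the all-gene medians 0.39, -0.14 and -0.03, so these genes lay above the other genes in both male libraries and below them in the female one, and the same held for the translation factors (0.37, 0.46 and 0.22) and the translocon list (0.30, 0.29 and 0.26). With Malat1-poor cells left out 72 ribosomal protein genes were higher. Rpl31 had 78.1, 72.5 and 57.5 CPM in RNA-rich and 53.1, 33.1 and 43.0 in mid-depth cells, higher in each library (0.71 ± 0.18, adjusted p = 0.0061, edgeR). Of 24 translation factors 4 were higher, led by Btf3 (0.70 ± 0.18, adjusted p = 0.0083), a partner of Naca in the complex that meets new chains at the ribosome. Naca itself rose by 0.54 ± 0.18 (adjusted p = 0.049).

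At the ER, 7 of 23 translocon and signal recognition genes were higher (median 0.24; on total UMIs -0.26). Spcs1, of the signal peptidase, had 76.1, 79.5 and 81.2 CPM against 40.2, 36.1 and 51.3, without overlap (0.90 ± 0.18, adjusted p = 0.00021); 9.84% of all genes tested lay above in this way. Sec61g had 156, 166 and 189 against 119, 73.2 and 127 (0.74 ± 0.18, adjusted p = 0.0036). Its partner Sec61b rose by 0.69 ± 0.18 (adjusted p = 0.0073) and Srp19 by 0.78 ± 0.20 (adjusted p = 0.0078). Tmem258, an oligosaccharyltransferase subunit, rose by 0.68 ± 0.19 (adjusted p = 0.014), 1 of 12 in its list. In the chaperone list of 24, Fkbp2 rose (0.73 ± 0.19, adjusted p = 0.0062) and Qsox1, a sulfhydryl oxidase, fell (-0.60 ± 0.18, adjusted p = 0.027).

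Agr2 had 464, 507 and 491 against 304, 337 and 399 CPM, above in all 3 libraries, but missed the threshold (0.50 ± 0.18, adjusted p = 0.074); with Malat1-poor cells left out it gave 0.85 and passed. Fkbp11 likewise gave 0.49 ± 0.18, adjusted p = 0.096, and 0.75 and a call with those cells left out. Pigr had 113, 61.4 and 64.2 against 108, 102 and 70.8 (-0.29 ± 0.18, adjusted p = 0.38). Hspa5 had 169, 162 and 154 against 124, 220 and 160 (-0.05 ± 0.18, adjusted p = 0.92). Among 13 degradation, 33 ER-to-Golgi, 12 granule and 12 secretagogue genes edgeR called 0 in each, with 3, 4, 4 and 3 at an unadjusted p under 0.05 and 0, 0, 0 and 0 called by DESeq2. With Malat1-poor cells left out 1, 5, 3 and 0 of them were higher and 1, 0, 0 and 2 lower, and on total UMIs 8, 10, 3 and 7 were lower.

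Genes for oxidative phosphorylation come from the nucleus and from the mitochondrial genome. Of 85 nuclear-encoded genes 22 were higher and 0 lower (median 0.42; on total UMIs -0.08), among them Atp5md (0.87 ± 0.20, adjusted p = 0.0018) and Uqcrq (0.80 ± 0.18, adjusted p = 0.0012). Of the 13 genes of the mitochondrial genome 10 were lower and 0 higher (median -0.65; on total UMIs -1.15). mt-Co3 had 1568, 1214 and 1052.5 CPM in RNA-rich and 1160, 3823 and 1981 in mid-depth cells (-0.73 ± 0.18, adjusted p = 0.0046), so it was lower in both male libraries and higher in the female one. By library the nuclear-encoded list had medians of 0.37, 0.71 and 0.28 and the mitochondrial list 0.69, -1.41 and -0.80, so the nuclear-encoded list lay just below the all-gene median and the mitochondrial list above it in the female library, and the reverse held in both male libraries. Without male library 2, 0, 0 and 0 ribosomal, translocon and nuclear-encoded genes were higher and 0 mitochondrial ones lower, and with DESeq2 1, 2 and 2 and 0. Nuclear-retained RNAs showed the same split, with medians of 0.75, -0.80 and -0.35 and 6 of 22 lower (2 without male library 1, 1 without male library 2 and 2 with DESeq2). Malat1 had 789, 574 and 393 against 754, 2227 and 880 (-1.04 ± 0.18, edgeR adjusted p = 6.8e-06), far lower in both male libraries and nearly level in the female one. The SEs of mt-Co3 and Malat1 are moderated across genes and do not show this split between libraries.

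The falls named next were taken from genes that went the same way in every library. Gm42418 had 251, 192 and 198 CPM against 1727.5, 460 and 578 (-1.85 ± 0.18, adjusted p = 1.7e-20), AY036118, which also overlaps ribosomal RNA, 13.1, 11.2 and 10.4 against 142, 28.6 and 22.2 (-1.89 ± 0.19, adjusted p = 5.4e-19), and Lars2, the mitochondrial leucyl-tRNA synthetase, 14.5, 11.2 and 11.4 against 64.3, 36.3 and 34.7 (-1.77 ± 0.19, adjusted p = 1.1e-16). H2-T23, a class I histocompatibility gene, fell by 0.85 ± 0.20 on the log2 scale (adjusted p = 0.0032). Of 16 immediate early genes 6 fell, with Egr1 at 7.92, 5.12 and 5.48 against 16.1, 8.05 and 14.6 (-1.07 ± 0.24, adjusted p = 0.00091) and Junb at 13.8, 52.9 and 52.8 against 32.2, 88.7 and 71.6 (-0.70 ± 0.19, adjusted p = 0.0095). The inducible heat shock genes Hspa1a (-0.99 ± 0.22, adjusted p = 0.00091) and Hspa1b fell, 2 of 11. The potassium channel gene Kcnn4 fell (-0.89 ± 0.25, adjusted p = 0.016). So did Ppp1r15a, 1 of 9 in the unfolded protein response list, Mars, 1 of 17 amino acid supply genes, Spdef, 1 of 14 acinar identity genes, and Tmsb10, 1 of the 9 genes picked in the study. The 7 lists of this paragraph, from immediate early genes on, gave 0 calls with DESeq2 and 0 without male library 2, and the immediate early count was 1 without male library 1.

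Of the rises that went the same way in every library Gm14135 was the largest, with 13691, 8159 and 9067 CPM against 8488, 2982 and 4848 (1.01 ± 0.17, adjusted p = 2.9e-06). Gabarap, an autophagy and trafficking protein, rose by 0.92 ± 0.18 (adjusted p = 0.00011), the actin-binding Pfn1 by 0.91 ± 0.20 (adjusted p = 0.00068), and Romo1, Rpl22l1, Edf1 and Atp5e by 0.79 to 0.87. Of 15 other secreted products Sval3 rose and Apoe, Ltf and Lyz2 fell. Without male library 1, 8 fell, and with DESeq2 0. The limit of 2 UMIs on Fcgbp, Sftpd, F5 and Ccl9 was the same at any depth, so it was stricter per UMI in RNA-rich cells. How far this lowered Ltf, a marker of the same epithelium, was not tested. Lyz2 and Apoe are also macrophage genes, and markers of other cell types fell with this result: 5 of 5 tested fibroblast, 6 of 6 macrophage and dendritic, 5 of 5 myoepithelial and 4 of 4 duct markers were lower. The tested fibroblast markers summed to 19.7, 9.85 and 14.1 CPM in RNA-rich and 20.9, 14.5 and 72.5 in mid-depth cells, and the macrophage and dendritic ones to 22.8, 12.6 and 22.2 against 37.0, 21.3 and 87.4, with the widest gap in male library 2. The tested duct markers had a median log2 fold change of -2.10 and the myoepithelial ones -2.58, larger falls than those of the genes named above, although the duct markers summed to 4.35, 1.07 and 1.03 CPM in RNA-rich and 1.61, 3.40 and 8.90 in mid-depth cells, higher in female RNA-rich cells. Free RNA was 8.72, 7.63 and 7.38% of the median mid-depth total; with it subtracted the counts were 46 and 52. The male free RNA held Obp1b at 1.15 and 1.26%, far above male cells, so these subtracted counts are less certain. The part of these in the result was not tested.

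The number of genes was also read at equal depth. Thinned to 5000 UMIs per cell, the median was 297, 322 and 311 genes in RNA-rich cells, 342, 435 and 344 in mid-depth cells and 429, 520 and 522 in Car6-high cells, and no cell was too shallow. Unthinned medians were 1846, 1503 and 1300 in RNA-rich, 565, 727 and 559 in mid-depth and 1242.5, 821 and 632 in Car6-high cells. The thinned order was the same in every library, as a description with no test. Only total UMIs were matched: tear-product genes took 78.7, 85.5 and 86.2% of the UMIs in RNA-rich, 78.0, 81.0 and 83.8% in mid-depth and 60.8, 63.2 and 64.5% in Car6-high cells, whose rule asked for a lower share, so Car6-high cells kept more UMIs for other genes at the same total. At 2000 UMIs the medians were 151, 165 and 160 against 176, 215 and 177 in mid-depth cells.

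Within the RNA-rich cells of each library, those at or above the median mitochondrial share were set against the rest, with the mitochondrial genes left out of the sums. Median totals were 118845, 36963 and 33408.5 UMIs in mitochondria-rich and 37769.5, 56816 and 42044 in mitochondria-poor cells. Mitochondria-rich cells were thus deeper in the female library and shallower in both male ones, and the part of depth was not tested. Of 6846 genes 8 were higher (0.117%) and 13 lower (0.190%). Malat1 had 796, 678 and 441 CPM in mitochondria-rich and 217, 299 and 207 in mitochondria-poor cells, without overlap (1.38 ± 0.15, adjusted p = 8.2e-07, edgeR); 8.98% of all genes tested lay above in this way. Malat1 included, 4 of 22 nuclear-retained and splicing RNAs rose (median 0.58), the others being Kcnq1ot1 (1.46 ± 0.21, adjusted p = 0.00035), Neat1 (0.89 ± 0.18, adjusted p = 0.019) and Gm26917 (0.95 ± 0.22, adjusted p = 0.043). That count was 0 without the block, 1 with DESeq2, 2 with RLE and 2 with free RNA subtracted. Malat1-poor cells made up 81.4, 10.8 and 32.4% of the mitochondria-poor and 1.43, 3.19 and 12.1% of the mitochondria-rich cells. With those cells left out before the split, 107 genes were higher and 193 lower, 13 of the nuclear-retained RNAs were higher and Malat1 still rose, by 0.92. The counts over all cells were 70 and 148 without the female library, 19 and 33 without male library 1 and 16 and 25 without male library 2.

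Ribosomal protein genes gave 0 calls of 79 in edgeR's test (67 at an unadjusted p under 0.05, 1 by DESeq2), with a median of -0.33 that turned to 0.04 on total UMIs, where the median over all genes moved from 0.01 to 0.37 and the counts were 316 and 2. With Malat1-poor cells left out 35 of them were lower, as were 32 without the female library and 14 with no filter. Gm14743 fell, with 37899, 298 and 188 against 64527, 492 and 551 CPM (-1.01 ± 0.17, adjusted p = 0.0021), as did the histone gene H2afz (-0.60 ± 0.13, adjusted p = 0.040); neither passed without male library 1 or without male library 2. The early-response gene Atf3 was lower (-0.82 ± 0.19, adjusted p = 0.041), but its list of immediate early genes gave 0 calls with DESeq2, with RLE, with free RNA subtracted, without the highest doublet scores, under 5% mitochondrial UMIs and without the block. On total UMIs 3 of that list were higher and 0 lower, and its median turned from -0.22 to 0.13. Of 5 fibroblast markers tested 3 were lower, and these summed to 7.19, 7.63 and 8.04 against 49.3, 8.41 and 15.0 CPM, with the widest gap in the female library; their part in the result was not tested. Mucl2 took 21.0, 10.8 and 11.3% of the UMIs in mitochondria-rich against 22.4, 12.3 and 11.6% in mitochondria-poor cells, and Gm1553 7.99, 15.6 and 14.7% against 7.67, 15.5 and 14.7%. Pigr (0.20 ± 0.12, adjusted p = 0.46) and Agr2 (-0.32 ± 0.13, adjusted p = 0.25) did not pass.

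Lastly, the cells at or above their library's median total were set against the shallower cells, with median totals of 133636, 59129 and 46357 against 34990.5, 33633.5 and 29079 UMIs. Of 6880 genes 1 was higher (0.0145%) and 17 lower (0.247%). The rise was Sval3, a relative of the seminal vesicle antigen, with 0, 2.11 and 3.72 CPM against 0, 0.413 and 1.48 (1.62 ± 0.36, adjusted p = 0.043), at 0 in female cells. Gm42418 was lower, with 156, 138 and 136 against 462, 196 and 208 (-0.90 ± 0.15, adjusted p = 0.0024, edgeR), but turned to 0.13 with free RNA subtracted. Egr1 (-1.28 ± 0.26, adjusted p = 0.020) and Apoe (-1.04 ± 0.22, adjusted p = 0.023) were lower. The fibroblast gene Dcn had 4.21, 3.27 and 2.46 against 26.8, 4.65 and 8.80 (-1.84 ± 0.24, adjusted p = 9.3e-05). Of 4 fibroblast markers tested 2 and of 6 macrophage and dendritic markers 1 were lower, and the fibroblast ones summed to 7.95, 6.88 and 6.25 against 48, 9.60 and 17.2; their part in the result was not tested.

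Ribosomal protein genes gave 0 calls of 79 along depth (1 at an unadjusted p under 0.05, 0 by DESeq2), with a median of 0.07 (-0.07 on total UMIs), and Agr2 gave 0.10 ± 0.13, adjusted p = 0.91. Malat1-poor cells made up 70, 6 and 22.7% of the shallower and 12.9, 7.97 and 21.7% of the deeper cells, a wide gap in the female library alone. With them left out before the split, 211 genes were higher and 139 lower, 39 ribosomal protein genes were higher, and 12 of 13 genes of the mitochondrial genome were lower. Over all cells that mitochondrial list gave 0 calls in edgeR (8 unadjusted, 0 by DESeq2). Without the female library 12 of its genes were lower and 23 ribosomal protein genes higher. The counts over all cells were 160 and 84 without the female library, 1 and 41 without male library 1 and 0 and 31 without male library 2. Mucl2 took 21.1, 12.1 and 12.0% of the UMIs in deeper against 22.4, 10.8 and 10.7% in shallower cells, and Gm1553 8.02, 15.5 and 14.8% against 7.46, 15.5 and 14.6%.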

How the data were processed

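UMI counts per gene and barcode, deposited by the authors for 3 libraries, were used: the barcodes called as cells and, for free RNA, all barcodes. Per the labels the authors used Cell Ranger 6.1.2 and mm10; the header of the all-barcode counts names another release. The member cells and gene lists were chosen with earlier results of these data known. Called barcodes held 63066640, 40609390 and 44661762 UMIs and member cells 24181271, 24057138 and 24785824.

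UMIs were summed per library and arm and tested with edgeR 4.0.16 (R 4.3.3; filterByExpr, TMM, glmQLFit, glmQLFTest, two-sided, Benjamini-Hochberg over all genes tested) on a design of library and arm. Both arms of a library come from 1 suspension, so the library is a block. Cells are not replicates, and n is 3 pools. The SEs and p-values use a dispersion that edgeR moderates across genes, so they do not measure the spread of each gene alone. A gene whose libraries disagree, such as mt-Co3 against mid-depth cells, can still have a small SE and p. A call is an adjusted p under 0.05. Tear-product genes, Car6, Fcgbp, Sftpd, F5 and Ccl9 entered the fit and were given no test. The fitting script was tested on simulated data.

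Named genes were tear-product genes at 1% of the UMIs in any library with Lpo, Pigr, Agr2 and Fkbp11; the 10 largest changes each way among called genes that went the same way in 3 libraries at a mean of 20 CPM or more; up to 4 called members of each list in each direction; and the 10 largest ratios of the female to the mean male level at 100 CPM or more. Hspa5, Naca, the called marker genes and the genes of uncalled barcodes were named after their values were seen. Alternatives were total UMIs or RLE in place of TMM, DESeq2 1.42.0, no filter, no block, each library left out, free RNA subtracted, the highest scrublet scores left out (scanpy 1.11.5, 0.8% per 1000 barcodes), a mitochondrial limit of 5%, other depth limits and, chosen after seeing the data, Malat1-poor cells left out. Promoters came from RefSeq (GRCm38.p6) and gene positions from GENCODE M21.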

Additional observations from a re-analysis of the deposited data

Results flagged for a closer look

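Gene lists were looked through for a female median on the other side of 0 from both male medians. Without regard to size this was the case in 9 of 20 lists against mid-depth cells, where the all-gene median did the same, in 4 of 20 against Car6-high cells, in 1 of 19 by mitochondrial share and in 13 of 20 along depth. In 3 of these lists each of the medians was also more than 0.2 from 0. Genes of the mitochondrial genome had median log2 ratios of RNA-rich over mid-depth cells of 0.694 in the female library and -1.41 and -0.805 in the male libraries. Nuclear-retained and splicing RNAs had 0.755 against -0.798 and -0.350 in the same contrast, where 36 of 48 female mid-depth cells were Malat1-poor. Secreted products outside the rule had -1.33 in the female library and 1.06 and 0.244 in the male libraries between RNA-rich and Car6-high cells; the all-gene medians of that contrast were 0.06, 0.74 and 0.82, and relative to them male library 2 lay on the side of the female library. The all-gene medians against mid-depth cells were 0.39, -0.14 and -0.03. The difference between the libraries was not tested in any of the 3, and sex cannot be told apart from facility and day.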

How the results depend on the processing

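Counts are given as higher and lower. For RNA-rich against mid-depth cells (132 and 201) they were 1 and 1640 on total UMIs, 16 and 3 with DESeq2, 221 and 130 with no filter on low counts, 0 and 0 without the library as replicate block, 46 and 52 with free RNA subtracted, 686 and 386 with Malat1-poor cells left out, 256 and 354 with mid-depth cells from 2000 UMIs, 395 and 130 from 10000 UMIs, 223 and 192 with RNA-rich cells from 30000 UMIs, and 162 and 132 with tear-product genes left out of the sums. Leaving out a library gave 0 to 191 higher and 11 to 319 lower, fewest without male library 2. For RNA-rich against Car6-high cells (254 and 117) they were 15 and 1032 on total UMIs, 81 and 98 with DESeq2 and 113 and 70 without the block; leaving out a library gave 102 to 338 and 64 to 71. For mitochondria-rich against mitochondria-poor cells (8 and 13) they were 316 and 2 on total UMIs, 2 and 7 with RLE, 1 and 5 with DESeq2, 52 and 81 with no filter, 0 and 0 without the block (273 and 194 unadjusted), 2 and 0 with free RNA subtracted (402 and 480 unadjusted), 3 and 1 without the highest doublet scores, 5 and 4 under 5% mitochondrial UMIs, and 107 and 193 with Malat1-poor cells left out; leaving out a library gave 16 to 70 and 25 to 148. For deeper against shallower cells (1 and 17) they were 0 and 1 on total UMIs (9 and 481 unadjusted), 2 and 29 with RLE, 0 and 1 with DESeq2 (5 and 53 unadjusted), 5 and 50 with no filter, 0 and 0 without the block (65 and 98 unadjusted), 0 and 6 with free RNA subtracted (145 and 256 unadjusted), 2 and 6 without the highest doublet scores and 211 and 139 with Malat1-poor cells left out; leaving out a library gave 0 to 160 and 31 to 84. The mean over libraries of the median genes per cell went from 310 to 159 in RNA-rich and from 374 to 189 in mid-depth cells with thinning to 2000 in place of 5000 UMIs. Among values of single named genes under an alternative, 553 kept their direction and side of the threshold, 93 no longer passed, 9 passed anew, 12 moved and 1 changed sign, Gm42418 along depth (0.13 with free RNA subtracted). Among the headline values, tallied apart, 80 moved under an alternative and 32 stayed the same. Where a setting changed a count, the cause was not tested. The design is limited to 3 libraries and to 17 to 48 cells in the smallest arms, with 12 female mid-depth cells once Malat1-poor cells are left out and 14 Car6-high cells of male library 1 under 5% mitochondrial UMIs.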

Other observations

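The uncalled barcodes differed from the called ones in a few genes. Obp1b made up 1.15 and 1.26% of the UMIs in uncalled male barcodes of 10 to 100 UMIs, but 0.00772 and 0.00312% in male RNA-rich cells and 0.00671 and 0.00380% in male fibroblast-marker barcodes. The immunoglobulin light chain gene Igkc had 3332 and 2609 CPM in the same uncalled barcodes and 0.665 and 0.323 CPM in RNA-rich cells. In the female library Bpifa2 had 4912 CPM in uncalled barcodes, 3795 in fibroblast-marker barcodes, 1645 in mid-depth cells and 169 in RNA-rich cells. The values with free RNA subtracted rest on these uncalled barcodes, and whether UMIs of another library are mixed into the male ones was not tested.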
